A study of Caenorhabditis elegans with 16 samples.

Results

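AWC ON and AWC OFF are the 2 members of one left-right pair of olfactory neurons in the head of the nematode Caenorhabditis elegans, and their RNA was compared here within single-cell libraries of first-stage larvae. The members were the cells that the authors' deposited annotation names AWC_ON or AWC_OFF: 390 ON and 177 OFF cells, 567 of 151415 cells in all and of 89073 neurons. AWC cells occurred in 13 of the 16 libraries, but only 2 libraries held 10 or more cells of each side, and these 2 were used for the tests. They were a sort of eat-4-expressing neurons, with 145 ON and 58 OFF cells, and a sort of sensory neurons, with 214 ON and 98 OFF cells. The nearest library below that minimum, replicate 2 of the pan-neuronal sort, held 9 ON and 7 OFF cells.

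The AWC neurons sense attractive volatile odours through G protein-coupled receptors in their ciliated endings. A cyclic GMP pathway carries the signal: odour lowers the activity of the cell, and its removal raises glutamate and peptide release onto interneurons. The sides look alike, but in the embryo a calcium-dependent kinase cascade is silenced in one cell, taken at random as left or right, which becomes AWC ON, while the other becomes AWC OFF. Each side then expresses its own receptors and detects some odours that the other does not.

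The study is an atlas of the larval nervous system in which cells carrying fluorescent reporters were sorted and captured on the 10x Genomics droplet platform. Transcripts carry a unique molecular identifier (UMI), and levels are given as CPM, the UMIs of a gene scaled to a common library size, after TMM normalization unless raw CPM is stated. The eat-4 library came from strain OH9625, which carries otIs292, an eat-4::mCherry reporter injected with rol-6(su1006), at 12 to 15 h after hatching. The sensory library came from strain PS9221, which carries syIs764 (Ptax-4::GFP and Pocr-2::GFP), at 14 to 16 h. Both were live cells of hermaphrodites labelled wild type, apart from the transgenes. Strain, reporter and age therefore differ between the libraries, but the sides were compared within each. The labels name 1 library for each sort here, and the number of animals behind it is not given. The p-values below weigh a difference against the spread between these 2 libraries, estimated largely by pooling over genes. They do not measure variation between animals, and a call can rest on 1 library. How the authors told ON from OFF cells is not given in the sources used here. If gene expression set these names, a p-value speaks only of cells so named.

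In the eat-4 library the ON cells held 89998 UMIs (median 441 per cell) and the OFF cells 37130 (median 449.5). In the sensory library they held 109428 UMIs (median 356.5) and 77716 (median 664.5), so ON cells were the shallower side there. The libraries shared 51 cell barcodes over all their cells and 0 over AWC cells. Every gene called between ON and OFF had UMIs in both libraries, whereas 33 of them were at 0 in all cells of at least 1 other library, so a 0 elsewhere may not show absence from AWC.

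The labels of the cells were checked against markers. str-2, the receptor that defines the ON side, was not analysed here. srsx-3, a receptor that defines the OFF side, had 29 UMIs in OFF against 2 in ON cells of the eat-4 library and 61 against 0 in the sensory library. That is 896 against 26.7 CPM and 893 against 0 CPM, so both libraries were high in OFF and at or near 0 in ON. Because srsx-3 names the side, it is given without a test; its fitted difference was -6.02 on the log2 scale (ON minus OFF, SE 0.60). The 8 AWC markers listed (ceh-36, odr-1, odr-3, tax-4, tax-2, daf-11, eat-4 and nlp-1) summed to 8489 raw CPM in ON and 8753 in OFF cells of the eat-4 library, and to 5995 and 4684 in the sensory library. In the other amphid sensory neurons, the head chemosensory and thermosensory classes other than AWC, the sums were 2716 and 940 raw CPM. srsx-3 was also counted outside AWC. These other amphid cells held 1 UMI of it in the eat-4 library and 32 in the sensory library. The command interneuron library, with 1 ON and 0 OFF cells, held 83 over all its cells. eat-4 in the eat-4 library cannot be told apart from the reporter, and odr-1 was sparse, with 9, 1, 17 and 9 UMIs in the 4 sums. Against all other neurons, in the test described below, edgeR called eat-4 lower on both AWC sides. That call held in 7 of 13 alternative settings, and DESeq2 did not make it.

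Markers of AWA (odr-10, odr-7) and AWB (str-1, lim-4) were at 0 on both sides of both libraries. Those of ADF and ASG were likewise at 0, and those of ASE, AFD and ASJ summed to at most 22.2 raw CPM. The ASI markers were uneven between the sides: they summed to 0 in ON and 26.9 raw CPM in OFF cells of the eat-4 library, and to 73.1 and 12.9 in the sensory library, from daf-7, with str-3 at 0 on both sides. The ASK markers were at 0 apart from 27.4 raw CPM (3 UMIs of srbc-66) in ON cells of the sensory library. The BAG markers reached 267 raw CPM in ON and 80.8 in OFF cells of the eat-4 library, and 183 and 116 in the sensory library, with gcy-31 at 0 throughout. The part of these markers in the results was not tested. The muscle gene unc-54 stood at 22106 raw CPM in ON and 16895 in OFF cells of the sensory library with the muscle gene myo-3 at 0. Both muscle genes summed to 12942 raw CPM in other amphid cells of that library. unc-54 was at 0 on both AWC sides of the eat-4 library. rol-6, injected with the eat-4 reporter, stood at 2989 raw CPM in ON and 2693 in OFF cells of the eat-4 library. In the sensory library rol-6 was at 0 and 12.9. The sources of unc-54 and rol-6 were not tested.

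An animal has 1 ON and 1 OFF cell, yet ON cells made up 71.4% of AWC cells in the eat-4 library (exact 95% interval 64.7 to 77.5%) and 68.6% (63.1 to 73.7%) in the sensory library. Pooled over both it was 69.7% (65.5 to 73.7%). Among cells of 500 or more UMIs, the share was 69.8% and 56.2%. In the sensory library 137 of 214 ON cells but 38 of 98 OFF cells fell below that depth, so the excess of ON there lay largely in shallow cells. The 2 pan-neuronal libraries together had 11 ON and 13 OFF cells. These intervals cover counting error only.

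Of 1109 genes tested between ON and OFF, 111 (10.0%) had an adjusted p under 0.05: 58 (5.23%) were higher in ON and 53 (4.78%) were lower (edgeR's quasi-likelihood test with library as block, Benjamini-Hochberg adjustment). Of the 19 chemoreceptor genes that passed the filter on low counts, out of 1003 in the table, 6 were higher in ON and 10 lower, srsx-3 among the latter. Of 26 neuropeptide genes tested, out of 145, 9 were higher and 6 lower. DESeq2 called 29 genes in all, among them 1 receptor higher and 4 lower, and 6 neuropeptide genes higher and 4 lower. Of 17 genes of olfactory transduction and 11 cilium and transport genes, edgeR and DESeq2 each called 0. At an unadjusted p under 0.05, 4 transduction genes were higher and 1 lower, and 0 cilium genes were higher and 1 lower. The median differences ON minus OFF were 0.07 for transduction and -0.24 for cilium on the log2 scale, beside 0.01 over all genes tested. A gene abundant on 1 side passes the filter through that side, so the counts among tested receptors describe genes with enough UMIs and not the whole family.

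**Figure D1:**
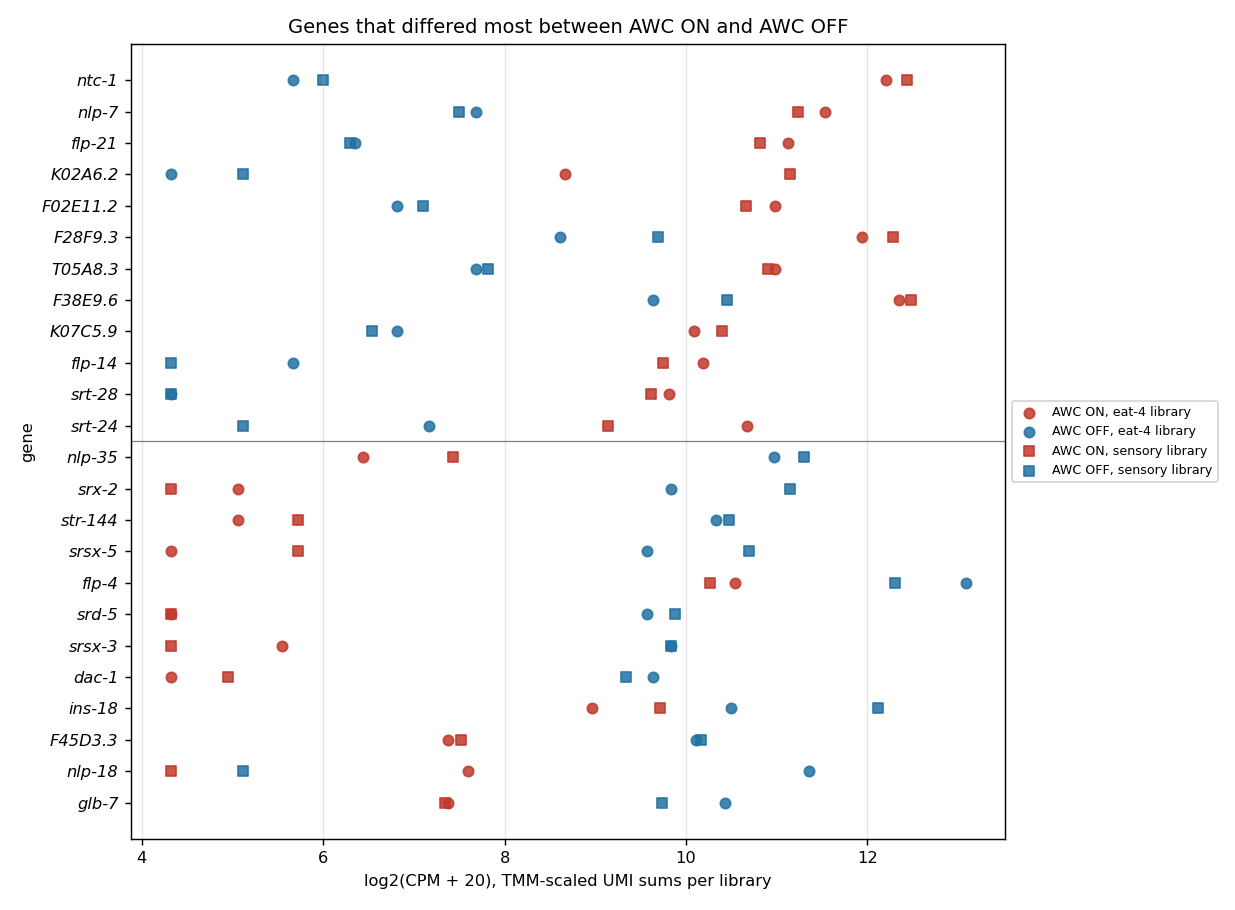
Level of the 12 genes with the smallest p in each direction, as log2 of TMM-scaled CPM plus 20, for AWC ON (red) and AWC OFF (blue) in the eat-4 library (circles) and the sensory library (squares). Above the grey line red lies to the right in both libraries, and below it blue does; ntc-1 stands at 4710 and 5526 CPM in ON against 30.9 and 43.9 CPM in OFF.

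Neuropeptide genes led the ON side. ntc-1 encodes nematocin, the worm's relative of vasopressin and oxytocin. It had 353 UMIs in ON against 1 in OFF cells of the eat-4 library (4710 against 30.9 CPM) and 506 against 3 in the sensory library (5526 against 43.9 CPM). Nearly all ntc-1 UMIs of AWC were thus in ON cells in both libraries, with a log2 fold change of 6.99 (SE 0.35, adjusted p = 9.30e-10). With 4 UMIs in OFF over both libraries, the fold is loosely bounded: the ratio of UMI shares was 124, with a counting interval of 48.1 to 455. AWC ON was not the class with the most ntc-1: the thermosensory AFD neurons reached 71600 and 79358 raw CPM, and AWC ON came next of 42 classes in the eat-4 library and of 22 in the sensory library.

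nlp-7, a neuropeptide-like gene, had 221 UMIs in ON against 6 in OFF in the eat-4 library and 219 against 11 in the sensory library. Those are 2949 against 186 CPM and 2392 against 161 CPM (log2 fold change 3.92, SE 0.28, adjusted p = 4.48e-08). flp-21 encodes FMRFamide-like peptides that act on the receptor NPR-1. Its UMIs were 166 against 2 and 163 against 4, or 2215 against 61.8 CPM and 1780 against 58.5 CPM (log2 fold change 4.97, SE 0.35, adjusted p = 4.48e-08). flp-14, another FMRFamide-like gene, had 86 UMIs against 1 and 77 against 0. Its ratio was 93.9, with a counting interval of 16.6 to 3730 (adjusted p = 1.65e-06). For all 4 peptide genes the ON and OFF sums lay far apart and in the same order in both libraries. The other 5 peptide genes higher in ON were nlp-13, flp-9, nlp-5, nlp-63 and flp-16, with log2 fold changes from 3.52 for nlp-13 down to 0.77 for flp-16. flp-16 was a difference of degree, at 1108 against 680 CPM and 2239 against 1288 CPM (adjusted p = 0.0290). The call of flp-16 held in 6 of 13 alternative settings and that of nlp-63 in 7.

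The chemoreceptor genes higher in ON were srt-28, srt-24, srt-42, srt-41, sre-14 and str-168. Of 40 srt genes in the table, 5 passed the filter on low counts, 4 of them higher in ON and 1, srt-53, lower. Those with few or no UMIs on 1 side passed through the other, where they were high, so these counts say nothing of the family. srt-28 had 66 UMIs in ON cells of the eat-4 library and 70 in those of the sensory library, and 0 in OFF cells of both, which is at least 26.1-fold higher relative to library size against a floor of 3 counts over the OFF group (adjusted p = 2.62e-06). srt-42 had 43 and 64 UMIs in ON and likewise 0 in OFF (adjusted p = 9.23e-06). srt-24 had 121 against 4 UMIs and 50 against 1, or 1615 against 124 CPM and 546 against 14.6 CPM (log2 fold change 4.12, SE 0.45, adjusted p = 5.17e-06). These receptors were detected on the ON side in both libraries, and srt-24 was also seen in OFF cells at a low level. AWC ON had the highest level of srt-28, srt-24, srt-42 and srt-41 of all classes with 20 or more cells in each library. srt-42 was also counted outside AWC. The P-lineage library of 11 to 14 h, with 0 AWC cells, held 3552 UMIs of it. All cells of the eat-4 and sensory libraries held 230 and 163. hsp-16.41, the heat-shock gene next to srt-42, had 193677, 28344 and 49910 UMIs in the same libraries. srt-41 also lies beside a heat-shock gene, as described below. The strand of counting is not given, so UMIs of srt-41 and srt-42 cannot be separated from those of overlapping neighbours. str-168 was less one-sided, with 19 UMIs against 4 and 35 against 4 (254 against 124 CPM and 382 against 58.5 CPM, log2 fold change 1.99, SE 0.57, adjusted p = 0.0320). In sre-14 the ON level was below that of BAG, at 147 and 186 CPM, with 0 and 1 UMIs in OFF (adjusted p = 0.0290). The call of str-168 held in 6 and that of sre-14 in 7 of 13 alternative settings.

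The regulators that differed included nsy-7, which encodes a transcription factor needed to keep the ON fate. It had 49 UMIs in ON against 0 in OFF of the eat-4 library (654 against 0 CPM) and 57 against 1 in the sensory library (623 against 14.6 CPM). The UMI ratio was 61.0, with a counting interval of 10.7 to 2434 (adjusted p = 1.16e-05), and AWC ON had the highest level of any class in both libraries. die-1, a zinc-finger gene that acts on the OFF side, did not reach the filter: its UMIs were 1 in ON against 4 in OFF, 0 against 5, and 0 against 3 in the other libraries. ceh-36, the homeobox gene that sets AWC identity, was present on both sides but higher in ON: 2855 against 2102 CPM and 3003 against 1405 CPM (log2 fold change 0.79, SE 0.21, adjusted p = 0.0211). Its call was lost in 6 of 13 alternative settings, without a change of direction. The LIM homeobox gene lim-7 was higher in ON at 547 against 61.8 CPM and 546 against 220 CPM (log2 fold change 1.79, SE 0.44, adjusted p = 0.0126). lim-7 was named after its values were seen.

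The remaining genes most different on the ON side have names that say little of function. K02A6.2 had 29 UMIs against 0 and 206 against 1, and so was higher in the sensory library than in the eat-4 library among ON cells (387 and 2250 CPM). Like ntc-1, it was highest in AFD, at 3872 and 7373 raw CPM. F02E11.2, F28F9.3, T05A8.3, F38E9.6 and K07C5.9 had log2 fold changes of 2.32 (F38E9.6) to 3.98 (F02E11.2), and each was also counted in OFF cells. F38E9.6 illustrates these, at 5191 against 773 CPM and 5701 against 1376 CPM (SE 0.22, adjusted p = 1.15e-06). AWC ON had the highest F38E9.6 level of any class in both libraries.

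By p-value, the peptide gene nlp-35 came first on the OFF side, followed by the receptor genes srx-2, str-144 and srsx-5. srx-2 had 29 UMIs in OFF against 1 in ON of the eat-4 library (896 against 13.3 CPM) and 153 against 0 in the sensory library (2239 against 0 CPM). The UMI ratio was 316, with a counting interval of 56.0 to 12551 (adjusted p = 4.70e-08). str-144 had 41 against 1 and 96 against 3 UMIs in OFF and ON, or 1267 against 13.3 CPM and 1405 against 32.8 CPM (log2 fold change ON over OFF -5.70, SE 0.44, adjusted p = 1.09e-07). srsx-5 had 24 against 0 and 112 against 3 UMIs, or 742 against 0 CPM and 1639 against 32.8 CPM, a ratio of 78.7 with a counting interval of 26.4 to 386 (adjusted p = 2.61e-07). srd-5 had 24 and 63 UMIs in OFF and 0 in ON cells of both libraries, at least 50.4-fold higher in OFF against a floor of 3 counts over the ON group (adjusted p = 8.94e-07). These receptors were near or at 0 in ON cells of both libraries, and AWC OFF had the highest level of each among the classes compared. Those are classes of these libraries only. Replicate 2 of the flp-7 sort, with 3 ON and 1 OFF cells, held 2878 UMIs of srx-2 over all its cells. All 3 srsx genes tested, among them the marker srsx-3, were lower in ON. So were both srd genes and both srx genes tested, 2 of 3 str genes and srt-53. As for srt, the filter chose these members through the side where they were high. The smaller ones were srx-41, str-130, srt-53, srd-12 and srsx-4, with 5 to 23 UMIs in OFF and 0 to 2 in ON in each library.

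3 chemoreceptor genes tested were not called: sre-15, sre-19 and srab-16. sre-15 stood at 267 CPM in ON against 186 in OFF in the eat-4 library and 175 against 381 in the sensory library, so its order turned between libraries (log2 fold change -0.48, SE 0.46, adjusted p = 0.633). srab-16 was at 200 against 309 CPM and 229 against 439 CPM, lower in ON in both (log2 fold change -0.81, SE 0.39, adjusted p = 0.256).

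**Figure D2:**
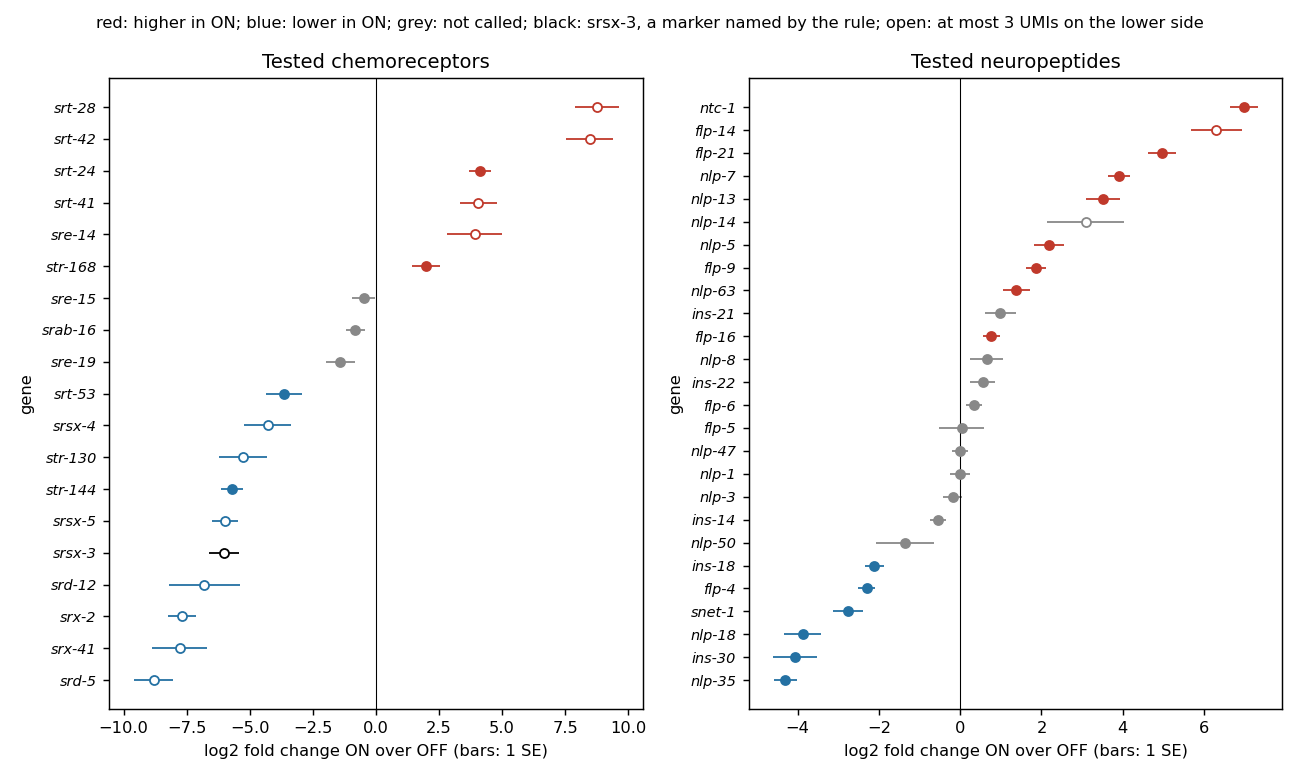
Log2 fold change of AWC ON over AWC OFF for the 19 chemoreceptor genes (left) and 26 neuropeptide genes (right) that were tested, with bars of 1 SE from edgeR. Red genes were higher in ON, blue lower, grey not called, and srsx-3 is black; open points had at most 3 UMIs on the lower side, so their fitted value is no bound. Chemoreceptors fall mostly at the ends, with 3 of 19 not called, and 11 of 26 neuropeptides were not called.

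Peptide genes of the OFF side were nlp-35, flp-4, ins-18, ins-30, nlp-18 and snet-1. nlp-35 had 64 UMIs in OFF against 5 in ON of the eat-4 library and 171 against 14 in the sensory library, or 1978 against 66.7 CPM and 2502 against 153 CPM (log2 fold change -4.30, SE 0.29, adjusted p = 4.48e-08). flp-4 was abundant on both sides and higher in OFF: 8655 against 1468 CPM and 5049 against 1212 CPM (log2 fold change -2.31, SE 0.21, adjusted p = 5.91e-07). The insulin-like gene ins-18 was at 1422 against 480 CPM and 4405 against 819 CPM (log2 fold change -2.11, SE 0.23, adjusted p = 5.44e-06). For these 3 genes OFF exceeded ON in both libraries. The insulin-like gene ins-30 had 47 UMIs against 0 and 71 against 12 (log2 fold change -4.07, SE 0.54, adjusted p = 4.21e-05).

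The calls of nlp-18 and snet-1 rested on 1 library. nlp-18 had 84 UMIs in OFF against 13 in ON in the eat-4 library but 1 against 0 in the sensory library. snet-1 had 181 against 49 in the first and 4 against 6 in the second, where the order was the reverse. In the eat-4 library the AIB interneurons held 135289 raw CPM of nlp-18 and 222191 of snet-1, and whether free RNA from other cells entered these values was not tested. On the ON side, gst-24, named after its values were seen, was called with 118 against 10 UMIs in the eat-4 library and 0 on both sides of the sensory library.

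Among regulators, dac-1, the worm relative of the dachshund transcription cofactor, had 25 UMIs in OFF against 0 in ON and 43 against 1, or 773 against 0 CPM and 629 against 10.9 CPM. OFF exceeded ON in both libraries (adjusted p = 2.54e-06). The highest class was ASK in both libraries, at 1616 and 1733 raw CPM. The globin gene glb-7 was counted 44 times in OFF against 11 in ON and 57 against 13 (log2 fold change -2.86, SE 0.35, adjusted p = 1.35e-05), and F45D3.3 at 1082 against 147 CPM and 1127 against 164 CPM (log2 fold change -2.81, SE 0.33, adjusted p = 9.69e-06). nhr-6, a nuclear hormone receptor gene, was at 4389 against 3109 CPM and 1024 against 284 CPM (log2 fold change -0.96, SE 0.26, adjusted p = 0.0229). It was the 1 gene called of 20 nuclear hormone receptor genes tested, a share near the 4.78% lower over all genes. The peptide receptor gene npr-5 was higher in OFF, at 1020 against 641 CPM and 468 against 120 CPM (adjusted p = 0.0471). The calls of nhr-6 and npr-5 each held in 7 of 13 alternative settings, and DESeq2 called 0 genes of either list.

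Genes of the pathway that sets the asymmetry were compared as a list of 23, from calcium channels and kinases to transcription factors. 12 were tested, nsy-7 was higher in ON and 0 were lower by edgeR and by DESeq2 (1, unc-76, at an unadjusted p under 0.05), beside 5.23% higher and 4.78% lower over all genes, and the median log2 fold change was -0.11. unc-43, the calcium-dependent kinase at the head of the cascade, was at 1161 against 1546 CPM and 1966 against 1829 CPM in ON and OFF (log2 fold change -0.11, SE 0.21, adjusted p = 0.860). sek-1, a kinase further down, was at 294 against 464 CPM and 284 against 293 CPM (log2 fold change -0.32, SE 0.38, adjusted p = 0.724). The ON and OFF values overlapped for unc-43, and for sek-1 the sides were nearly level in the sensory library. olrn-1 was at 200 against 432.8 CPM and 186 against 234 CPM (log2 fold change -0.70, SE 0.44, adjusted p = 0.431). Members too sparse to test included nsy-1, with 8 against 1 and 11 against 11 UMIs, inx-19, with 1 UMI in all, and the claudin-like gene nsy-4, at 0 throughout. At these depths only large differences in them could have been seen.

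In olfactory transduction, the G protein subunit gene odr-3 was at 1468 against 1422 CPM and 1715 against 1434 CPM in ON and OFF (log2 fold change 0.17, SE 0.20, adjusted p = 0.728). The receptor-type guanylyl cyclase gene daf-11 was at 400 against 1051 CPM and 917 against 1127 CPM, lower in ON in both libraries but not called (log2 fold change -0.71, SE 0.27, adjusted p = 0.138). The cyclic nucleotide-gated channel subunit gene tax-2 was higher in ON in both, at 320 against 92.7 CPM and 601 against 293 CPM, and also not called (log2 fold change 1.22, SE 0.40, adjusted p = 0.0660). Of 7 genes of glutamate output tested, the synaptotagmin gene snt-1 was lower in ON, at 227 against 433 CPM and 240 against 702 CPM (log2 fold change -1.30, SE 0.36, adjusted p = 0.0290), beside 4.78% lower over all genes. Its call held in 6 of 13 alternative settings, and DESeq2 called 0 of the 7.

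The small heat-shock genes hsp-16.2 and hsp-16.41 differed with their receptor neighbours, a pattern named after its values were seen. In gene order on the WBcel235 annotation srt-41, hsp-16.2, hsp-16.41 and srt-42 lie side by side with no protein-coding gene or pseudogene between them, and all 4 were higher in ON. hsp-16.2 had 2435 UMIs in ON against 137 in OFF of the eat-4 library and 3053 against 1080 in the sensory library, or 32491 against 4235 CPM and 33342 against 15804 CPM (log2 fold change 1.96, SE 0.35, adjusted p = 0.00113). hsp-16.41 was at 22484 against 3648 CPM and 27259 against 12951 CPM (log2 fold change 1.80, SE 0.32, adjusted p = 0.000862). srt-41 had 36 against 0 and 27 against 2 UMIs, a ratio of 18.1 with a counting interval of 4.82 to 153 (adjusted p = 0.00111). The small heat-shock genes that lie elsewhere were not called: hsp-16.11 was at 9127 against 10695 CPM and 8813 against 11121 CPM (log2 fold change -0.28, SE 0.21, adjusted p = 0.529), and hsp-16.48 at 320 against 92.7 CPM and 229 against 351 CPM (0.13, SE 0.49, adjusted p = 0.933). hsp-70 went the other way, at 93.4 against 371 CPM and 32.8 against 556 CPM in ON and OFF (log2 fold change -2.95, SE 0.54, adjusted p = 0.00117), a call that held in 7 of 13 alternative settings. The hsp-16 genes have near-identical copies whose reads could have been divided between them, and the calls of hsp-16.2 and hsp-16.41 were lost in 6 and 5 of 13 alternative settings, 1 of which leaves these genes out. All heat-shock genes together took 5.84% of UMIs in ON against 2.22% in OFF of the eat-4 library and 6.30% against 4.10% in the sensory library. Without them, 140 genes were called, 108 of them in common with the 111.

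**Figure D3:**
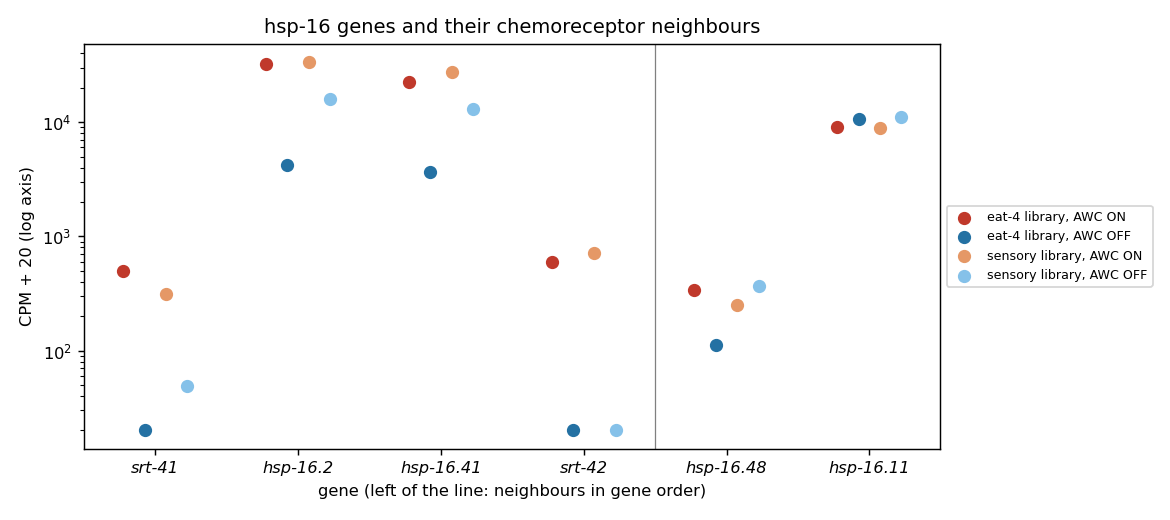
TMM-scaled CPM plus 20, on a log axis, of hsp-16.2 and hsp-16.41, their receptor neighbours srt-41 and srt-42 (left of the line), and the hsp-16 genes that lie elsewhere (right), in each side and library. The 4 neighbours are higher in ON (red and orange) than in OFF (dark and light blue) in both libraries, while hsp-16.11 is at 8813 to 11121 CPM in all 4.

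On the OFF side, srsx-5, srsx-4, srsx-3 and srt-53 lie in one stretch of the same annotation, with 1 other gene between srsx-5 and srsx-4 and none between the others. All 4 were lower in ON, but srsx-3 marks the OFF side and is given without a test. The filter on low counts admitted these genes through OFF, where they were high. srsx-4, annotated there as a pseudogene, had 6 UMIs in OFF against 2 in ON and 23 against 0, and the strand of counting is not given, so overlapping or similar genes cannot be separated. str-144 and str-130, both lower in ON, have 4 genes between them.

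Single cells were sorted by 12 side genes chosen after their values were seen: ntc-1, nsy-7, srt-28, srt-42, flp-21 and nlp-7 for ON, and srsx-3, srsx-5, srx-2, srd-5, str-144 and nlp-35 for OFF. Of 145 ON cells in the eat-4 library, 114 had UMIs of ON genes alone, 1 of OFF genes alone, 4 of both and 26 of neither. Of its 58 OFF cells, 42 had OFF genes alone, 0 ON genes alone, 7 both and 9 neither. In the sensory library the 214 ON cells divided into 153, 6, 10 and 45 in the order ON alone, OFF alone, both and neither, and the 98 OFF cells into 3, 79, 11 and 5. These counts are a description: the genes were chosen for their low level on the other side, and srsx-3 marks the OFF side, so the choice itself keeps the number of cells with both low. No doublet caller was run. ntc-1 was seen in 60.7% of ON cells (exact interval 52.2 to 68.7%) against 1.72% of OFF cells in the eat-4 library and in 47.7% (40.8 to 54.6%) against 3.06% in the sensory library. In other amphid cells it was 9.09% and 5.63%, at median depths of 598.5 and 839 UMIs. After each cell was thinned to 200 UMIs, the shares in ON were 44.2% and 45.1%, leaving out 32 and 61 shallower ON cells, against 1.96% and 1.20% in OFF, where 7 and 15 were left out.

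**Figure D4:**
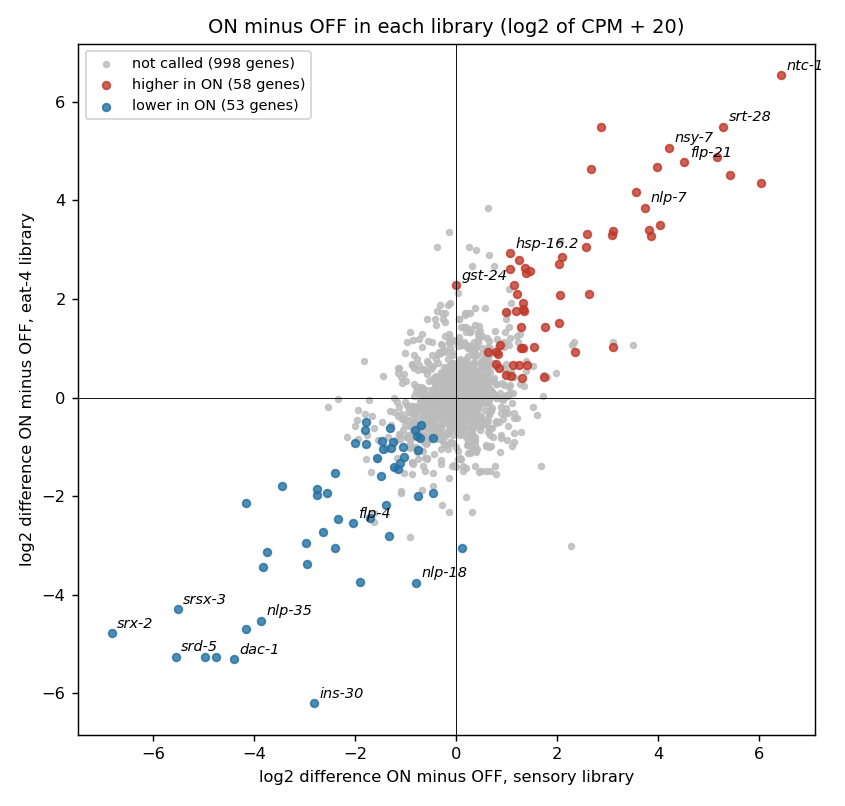
Each point is 1 of the 1109 genes tested, placed by its difference ON minus OFF in log2 of CPM plus 20 in the sensory library (x axis) and in the eat-4 library (y axis). Red points (58) were higher in ON and blue (53) lower. Most called genes lie in the quadrants where both libraries share a sign, and gst-24 (0) and snet-1 (0.12) lie near 0 on the x axis, snet-1 with the opposite sign to the eat-4 library.

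The direction of each called gene was set by the same 2 libraries that made the call: all 111 had it in the eat-4 library, and 108 of the 109 with 3 or more UMIs had it in the sensory library. The 11 other libraries with AWC cells, which the fit did not use, held 31 ON and 21 OFF cells. The sides were spread unevenly over them. The command interneuron library gave 1 ON and 0 OFF cells, and the pan-neuronal libraries together gave 11 and 13. They were summed without a block, so side cannot be told apart from library, sort and age there. Summed, 82 of 96 called genes with 3 or more UMIs there (85.4%) had the same direction, against 576 of 1012 (56.9%) of all genes tested. ntc-1 had 86 UMIs in ON and 0 in OFF cells there, nsy-7 10 and 0, srt-42 24 and 0, srx-2 0 and 56, nlp-35 0 and 32, and ins-30 0 and 52. nlp-18 had 33 in ON and 1 in OFF, against its direction in the eat-4 library.

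What both sides share was tested against the 15126 other neurons of these libraries. A gene was called when ON and OFF each differed in the same direction with an adjusted p under 0.05 and a log2 fold change of at least 1. Of 1677 genes tested 333 were called (19.9%): 126 higher in AWC (7.51%) and 207 lower (12.3%). ceh-36 had the smallest p, at 2736 CPM in ON and 1976 in OFF against 49.1 in other neurons of the eat-4 library, and 2836 and 1312 against 52.8 in the sensory library. Its log2 fold change was 5.77 (SE 0.35, adjusted p = 4.28e-05) in ON and 4.98 (SE 0.34, adjusted p = 0.000119) in OFF. sox-2, a SoxB transcription factor gene, was at 984 and 872 CPM in ON and OFF against 77.1, and 856 and 861 against 33.9 (log2 fold changes 4.13, SE 0.45, and 4.07, SE 0.45). In both genes every AWC sum exceeded every other-neuron sum. ceh-36, and odr-3, daf-11 and nlp-1 below, are among the AWC markers listed above. How the authors named cells AWC is not given in the sources used here. If such markers set the name, the p-values of these genes speak only of cells so named. The same holds for them against other amphid cells. lin-11, a LIM homeobox gene, had 2 UMIs in all AWC sums against 169 and 160 CPM in other neurons. The homeobox genes ceh-23 and ceh-58 were also higher on both sides; ceh-23 stood at 5216 and 5636 CPM against 239.5 and at 1206 and 1887 against 238.

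The other genes most raised on both sides included the glutathione transferase gene gst-1, the DM-domain gene dmd-9, the chemoreceptor gene srab-16 and genes without a descriptive name. gst-1 was at 1675 and 2615 CPM against 188 in the eat-4 library and 1206 and 2119 against 175 in the sensory library (log2 fold changes 2.97, SE 0.29, and 3.70, SE 0.30). R08A2.7 was at 6085 and 6856 CPM against 338, and 5094 and 5824 against 438. srab-16 was at 192 and 290.5 CPM against 2.24, and 217 and 410.1 against 7.49, with log2 fold changes of 5.48 (SE 0.62) and 6.22 (SE 0.64). Of 23 chemoreceptor genes tested, out of 1003 in the table, 6 were higher on both sides and 3 lower. Over all genes 7.51% were higher and 12.3% lower, so the lower count was near the share over all genes. 2 of those 6 were one-sided within AWC: str-144 rested on 1 and 3 UMIs in ON, and srt-41 on 0 and 2 UMIs in OFF. A receptor gene abundant in AWC passes the filter on low counts through AWC. The higher count therefore describes genes so admitted and not the whole family. Of 20 transduction genes, daf-11, odr-3 and gpa-13 were higher on both sides and gpa-2, whose call held in 7 of 13 alternative settings, was lower. daf-11 was at 384 and 988 CPM against 5.83 in the eat-4 library, and 866 and 1053 against 81.2 in the sensory library (log2 fold changes 4.32, SE 0.81, and 5.25, SE 0.86).

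Of 72 neuropeptide genes tested against other neurons 7 were higher on both sides and 38 lower, beside 7.51% and 12.3% over all genes. The list had a median of -3.62 in ON and -3.75 in OFF on the log2 scale, against -0.11 and -0.18 over all genes tested. flp-17 was at 0 in all 4 AWC sums and at 3836 and 4072 CPM in other neurons. A gene abundant in other neurons passes the filter on low counts through them, as flp-17 did. The lower count and the medians therefore describe genes so admitted and not the whole family. flp-5 had 19, 14, 14 and 4 UMIs in the AWC sums and stood at 7056 and 8284 CPM in other neurons. The 7 higher genes were ins-21, ins-14, flp-6, nlp-3, ins-35, nlp-1 and nlp-47. nlp-3 was at 14816 CPM in ON and 17170 in OFF against 1636 in the eat-4 library, and at 16087 and 17362 against 5281 in the sensory library (log2 fold changes 2.31, SE 0.43, and 2.48, SE 0.43). nlp-1, whose peptide signals from AWC to the AIA interneurons, was at 1023 and 872 CPM against 409, and at 608 and 697 against 239. The summed cells of other neurons mix many classes, each with peptides of its own.

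Against the 6452 other amphid sensory neurons, of 12 classes, 473 of 1719 genes were called (27.5%), 137 higher in AWC (7.97%) and 336 lower (19.5%). These and the AWC sums are the same libraries as above, and the amphid cells are part of the other neurons, so the comparisons share their data. The 12 higher genes of smallest p were R08A2.7, T02C12.5, glb-14, sox-2, msa-1, dmd-9, gst-1, Y67D8A.2, ceh-23, ceh-36, T24C4.3 and B0034.5. glb-14, a globin gene, was at 483 CPM in ON and 1045 in OFF against 14.7 in the eat-4 library, and 628 and 840 against 14.0 in the sensory library (log2 fold changes 5.27, SE 0.38, and 6.01, SE 0.38). sox-2 was at 978 and 847 CPM against 18.4, and 841 and 840 against 32.6 (5.12, SE 0.38, and 5.00, SE 0.38). Each exceeded the amphid sum in all 4 AWC sums.

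**Figure D5:**
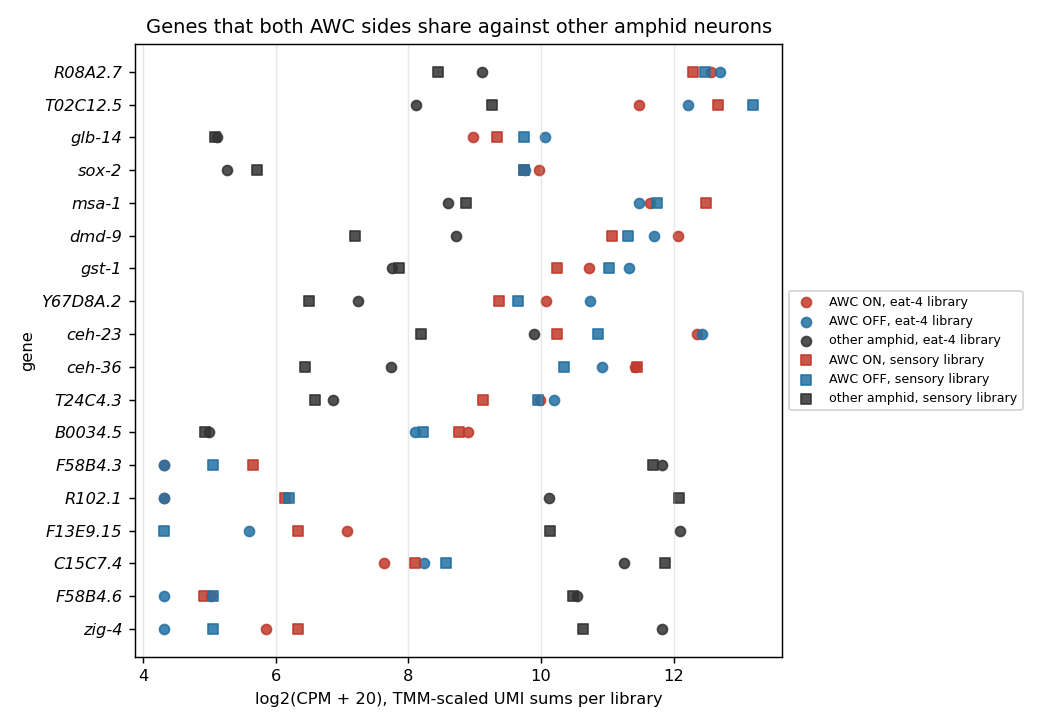
Log2 of TMM-scaled CPM plus 20 for the 12 genes of smallest p higher and the 6 lower in both AWC sides against other amphid neurons, in AWC ON (red), AWC OFF (blue) and other amphid neurons (black), with circles for the eat-4 and squares for the sensory library. Red and blue lie together and apart from black for each gene; sox-2 is at 840 to 978 CPM in AWC against 18.4 and 32.6 CPM.

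Of 25 cilium and transport genes tested against other amphid cells, 14 were lower on both AWC sides and 0 higher, 11 not being called. These counts were the same by edgeR and by DESeq2 (18 lower and 0 higher at an unadjusted p under 0.05 on both sides) and stood beside 19.5% lower and 7.97% higher over all genes. The median log2 fold change was -1.77 in ON and -1.57 in OFF, beside -0.08 and -0.15 over all genes tested. A gene abundant in other amphid cells passes the filter on low counts through those cells. The lower count and the medians therefore describe genes so admitted and not the whole list. ift-81, a subunit of the intraflagellar transport train, was at 76.2 and 56.5 CPM in ON and OFF against 850 in the eat-4 library, and 111 and 93.3 against 690 in the sensory library (log2 fold changes -3.01, SE 0.40, and -3.26, SE 0.45). dyf-3, needed to build sensory cilia, was at 102 and 56.5 CPM against 445, and 101 and 66.6 against 307 (-1.86, SE 0.40, and -2.50, SE 0.50). osm-3, the kinesin motor of the outer cilium, had 5 UMIs in ON and 0 in OFF over both libraries, against 326 and 216 CPM in other amphid cells. AWC cells were shallower than other amphid cells, whose median was 598.5 UMIs in the eat-4 and 839 in the sensory library, and the part of depth in this difference was not tested. Against all other neurons, many of which have no cilium, 1 of 19 tested was lower, beside 12.3% over all genes. The median log2 fold change of the list there was -0.82 in ON and -0.67 in OFF, beside -0.11 and -0.18 over all genes tested. In the sensory library 4780 of the 6401 other neurons were amphid cells. Genes abundant in other neurons could pass the filter through them here too.

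Of 22 transduction genes tested in this comparison 3 were higher and 5 lower, beside 7.97% and 19.5% over all genes, so the lower count was near the share over all genes. The higher genes were again daf-11, odr-3 and gpa-13, with odr-3 at 1398 and 1299 CPM in ON and OFF against 301, and 1590 and 1306 against 580.3 (log2 fold changes 1.81, SE 0.28, and 1.60, SE 0.29). The lower genes were gpa-2, a G protein subunit, ocr-2, a TRPV channel subunit, arr-1, the arrestin, odr-4, which helps receptors reach the cilium, and dgk-1, a diacylglycerol kinase. The call of dgk-1 held in 5 of 13 alternative settings, in 7 of which it was tested, and that of gpa-2 in all 13. ocr-2 had 0 UMIs in 3 of the 4 AWC sums and 1 in the other, against 160 and 200 CPM in other amphid cells, while its promoter drove a reporter in the sensory strain. Of 54 neuropeptide genes tested 8 were higher on both sides and 25 lower, beside the same 7.97% and 19.5%. Genes of both lists could pass the filter on low counts through the other amphid cells alone, so the lower counts do not describe whole lists. nlp-1 was at 1017 and 847 CPM against 136, and 598 and 680 against 166 (2.37, SE 0.34, and 2.30, SE 0.35). The one-sided peptide genes nlp-35 and flp-9 were also among the 8, since the side with less still exceeded the other amphid cells: the log2 fold change of nlp-35 in ON was 3.53 (SE 0.69), and flp-9 was at 480 and 1159 CPM in OFF against 438 and 210.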

How the data were processed

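The authors deposited 1 matrix of whole-number UMI counts for 18570 genes, with an annotation of each cell, and Cell Ranger 6.0.0 is named in the submitters' processing notes. The genome build, cell filters and naming of cells are not given in the sources read here; no coordinates are printed. Cells were taken as annotated, with no doublet call, and sums of counts per library and side were fitted with edgeR 4.0.16 (quasi-likelihood, TMM, filterByExpr, library as block) in R 4.3.3. Benjamini-Hochberg adjustment ran over all genes tested. The ON versus OFF fit had 4 sums and 1 residual degree of freedom, so its spread was largely pooled over genes (prior degrees of freedom 15.1). DESeq2 1.42.0 was an alternative. Each standard error is the absolute fold change on the log2 scale divided by the root of F. Intervals of shares and UMI ratios are exact 95% counting intervals. The script was tested on simulated data. The WBcel235 annotation, which 18545 gene identifiers matched, gave gene order and mitochondrial genes. The members, lists and tests were chosen with earlier results of these data known. Named genes were the 12 of smallest p per direction between ON and OFF, 12 higher and 6 lower in each shared comparison, at most 6 called per list, and members of the asymmetry, identity and transduction lists. Others are examples taken for their role, or are marked in the text as chosen by value.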

Additional observations from a re-analysis of the deposited data

How the results depend on the processing

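No gene that was called again under an alternative run had turned direction, and no called gene named by the rule above turned direction. Other called genes were not checked for direction where their call was lost. Beside the 111 genes called between ON and OFF, DESeq2 called 29, and edgeR called 41 in the 4 libraries with 5 or more cells of each side, 44 in cells of 500 or more UMIs, 55 with equal numbers of ON and OFF cells and 61 with the other libraries summed as a further block, the last chosen after seeing the data. The replicate block here is the library: with no replicate block, 28 genes were called between ON and OFF and 184 against other neurons. Leaving out 1 of the 4 libraries in turn, also chosen after seeing the data, gave 19 genes between ON and OFF without the eat-4 library, 10 without the sensory library, 62 without replicate 2 of the pan-neuronal sort and 90 without the unc-4, ceh-2 and acr-2 sort. The counts without the eat-4 and the sensory library were 163 and 190 against other neurons and 288 and 118 against other amphid neurons, and 263 to 417 without either of the others. Leaving out 1 of the 2 main libraries leaves no residual degree of freedom, so no count was made. Against other neurons 570 genes were called with no filter on low counts and 1245 with ON and OFF summed; against other amphid neurons, 766 and 1650. 10 genes higher in ON (ntc-1, nlp-7, flp-21, flp-14, nlp-13, F02E11.2, F28F9.3, F38E9.6, K07C5.9 and T05A8.3) and 5 lower (nlp-35, flp-4, srx-2, srsx-5 and F45D3.3) were called under each of the 13 alternatives that did not leave out a library. The share of ON cells was 61.4% in cells of 500 or more UMIs. The alternatives for str-2 were not run. Depth limits what can be seen: a gene at 0 in the OFF cells of the eat-4 library, of 37130 UMIs, may still be present there.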
